A study of Mus musculus with 23 samples.

Results

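Lung tumours from Rarres1 knockout (KO) mice aged 18 months were compared with KO lungs taken at embryonic day 19.5 (E19.5), shortly before birth, to tell which programs of the fetal lung the tumours carried and which they lacked. The comparison rests on 6 of the 23 RNA-sequencing libraries of the study, chosen by their labels: tumours 1, 3 and 6, and E19.5 lungs 1, 2 and 3. The tumours came from male Rarres1-KO mice on a C57BL/6 background, and the E19.5 lungs from Rarres1-KO embryos on the same background, whose sex is not labelled. All mice lived behind a pathogen-free barrier without treatment, and total RNA was extracted from lung. Rarres1 was knocked out in tumours and in every KO library set against them. Wild-type (WT) lungs at E19.5 and at 10 months, 3 each, served to define genes that change after birth. The WT E19.5 lungs were also used as an alternative reference. The labels do not give the histology of the tumours, how they were cut from the lung, or whether an E19.5 library holds 1 embryo or several. Adult KO lung was used to show what a gene does after birth, with 5 non-tumour lungs of 18-month-old males (numbered 1, 2, 3, 6 and 7, of which 1, 3 and 6 carry the same animal codes as the tumours) and 3 lungs of 10-month-old KO males. Tissue state and age differ together between tumours and E19.5 lung and cannot be told apart in that comparison.

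The lung just before birth is built by an exchange between epithelium and mesenchyme. The epithelium, marked by the transcription factor Nkx2-1, sends Hedgehog signals outwards and receives FGF signals back, while its cells turn into the flat type 1 and the surfactant-making type 2 cells of the alveolus. The mesenchyme lays down collagen and elastin for the alveolar walls, and a set of imprinted genes that drives or restrains fetal growth is switched off soon after birth. Lung tumours of aged mice commonly keep features of type 2 cells.

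The 6 libraries held between 24845059 and 32039107 expected counts each, and the table lists 24411 genes. Rarres1 was nearly unread, with 1 read over the tumours and 2 over the E19.5 lungs, and 0 over the KO non-tumour and KO 10-month lungs. Genes of the Y chromosome were read in all 3 tumours and all 3 E19.5 lungs (4066 to 5042 reads of Ddx3y, Eif2s3y, Kdm5d and Uty together), and Xist, the RNA of the inactive X, stayed at or below 1.27 CPM, a count scaled to the size of its library. KO non-tumour lung 7 went against its male label, with 838 CPM of Xist and 0 reads of those 4 genes, so counts and the main genes called against non-tumour lung are also given without it. WT E19.5 lung 3 differed in X- and Y-linked genes from its group, whose sex is not labelled, so sex may differ within that group. The median log2 fold change of 5 sex-linked genes in tumours was −0.02 over KO E19.5 lungs and 0.48 over WT E19.5 lungs. The labels call the replicates separate samples and say no more, and a p-value reflects how much these samples vary, which may be technical. In whole tissue, fewer cells of a type and less RNA per cell cannot be told apart.

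Across all genes the tumours lay far from fetal lung. The root mean square difference in log2(CPM + 1) was between 0.98 and 1.13 for the 9 pairs of a tumour and an E19.5 lung (median 1.04). It was between 0.50 and 0.80 for tumour and KO non-tumour lung (median 0.71), and between 0.50 and 0.61 among the tumours. Tumour 6 stood apart, at 0.50 to 0.54 from the non-tumour lungs but 0.56 and 0.61 from tumours 3 and 1, which lay 0.65 to 0.80 from the non-tumour lungs. No pair of a tumour and an E19.5 lung was as close as the most distant pair of a tumour and an adult KO lung. The KO 10-month lungs stood 0.92 to 0.99 from E19.5 lung, a range that meets that of the tumours at its upper end.

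**Figure D1:**
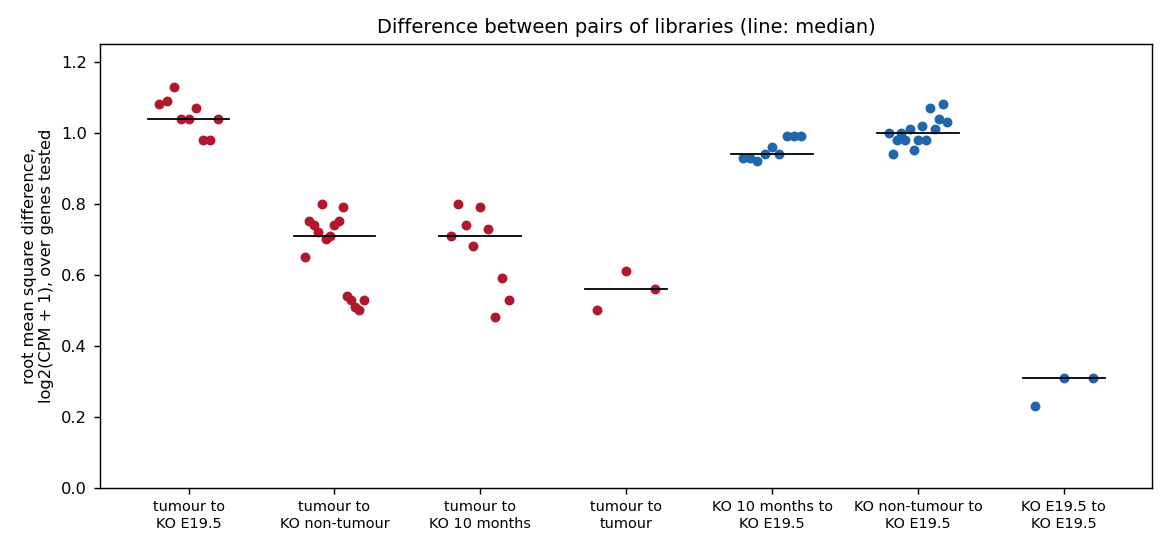
Difference between pairs of libraries, as the root mean square of log2(CPM + 1) over the genes tested (vertical axis), for pairs of the groups named on the horizontal axis; each point is 1 pair of libraries and the line is the median. Tumours sit 0.98 to 1.13 from KO E19.5 lung and 0.50 to 0.80 from KO non-tumour lung of the same age.

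Of 15543 genes tested, 5938 (38.2%) were called at an adjusted p under 0.05, 3140 higher in tumours (20.2%) and 2798 lower (18.0%). The groups did not overlap for 54.8% of the genes. A change of at least 4-fold was called for 930 higher and 777 lower genes. With limma on the authors' FPKM values, which changes test, measure and filter together, 2458 genes were called higher and 3416 lower, with a median shift of −0.12 on the log2 scale. Without E19.5 lung 1 the count of calls was 3929 without E19.5 lung 2 it was 3829, and without tumour 6 it was 7464.

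The fetal genes as a whole were mostly not kept. Genes that fall after birth were taken from WT lungs, which share no library with the tumour comparisons: 726 genes were at least 4-fold lower at 10 months than at E19.5 in WT. In tumours 576 of them (79.3%) were lower than in KO E19.5 lung, against 18.0% of all genes tested, and 5 were higher. Against KO non-tumour lung 73 of the 726 (10.1%) were higher in tumours and 14 were lower, but 291 of the 726 were too low in both groups to be tested. The 73 were 16.8% of the 435 tested, where 7.20% of all genes tested were higher (13.8% called in either direction). A gene can enter this test through its level in tumours alone, so both shares are given. Without a filter on low counts 81 of 719 (11.3%) were higher in tumours than in non-tumour lung, against 5.81% of all genes. Without lung 7 the count was 61 of 726 (14.4% of the 423 tested), against 5.09% of genes tested. With the animal as a block it was 12 (2.76% of the 435 tested), against 0.543%. Of the 73 genes, 43 did not pass the test against E19.5 lung and 25 were lower than in it. Genes that rise after birth were kept: of 713 genes at least 4-fold higher at 10 months in WT, 573 were higher in tumours than at E19.5 (20.2% of all genes), and 113 (15.8%) were lower than in non-tumour lung, where 6.60% of all genes were (80 of 713 without lung 7, against 4.35%, and 6 with the animal as a block, against 0.401%).

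**Figure D2:**
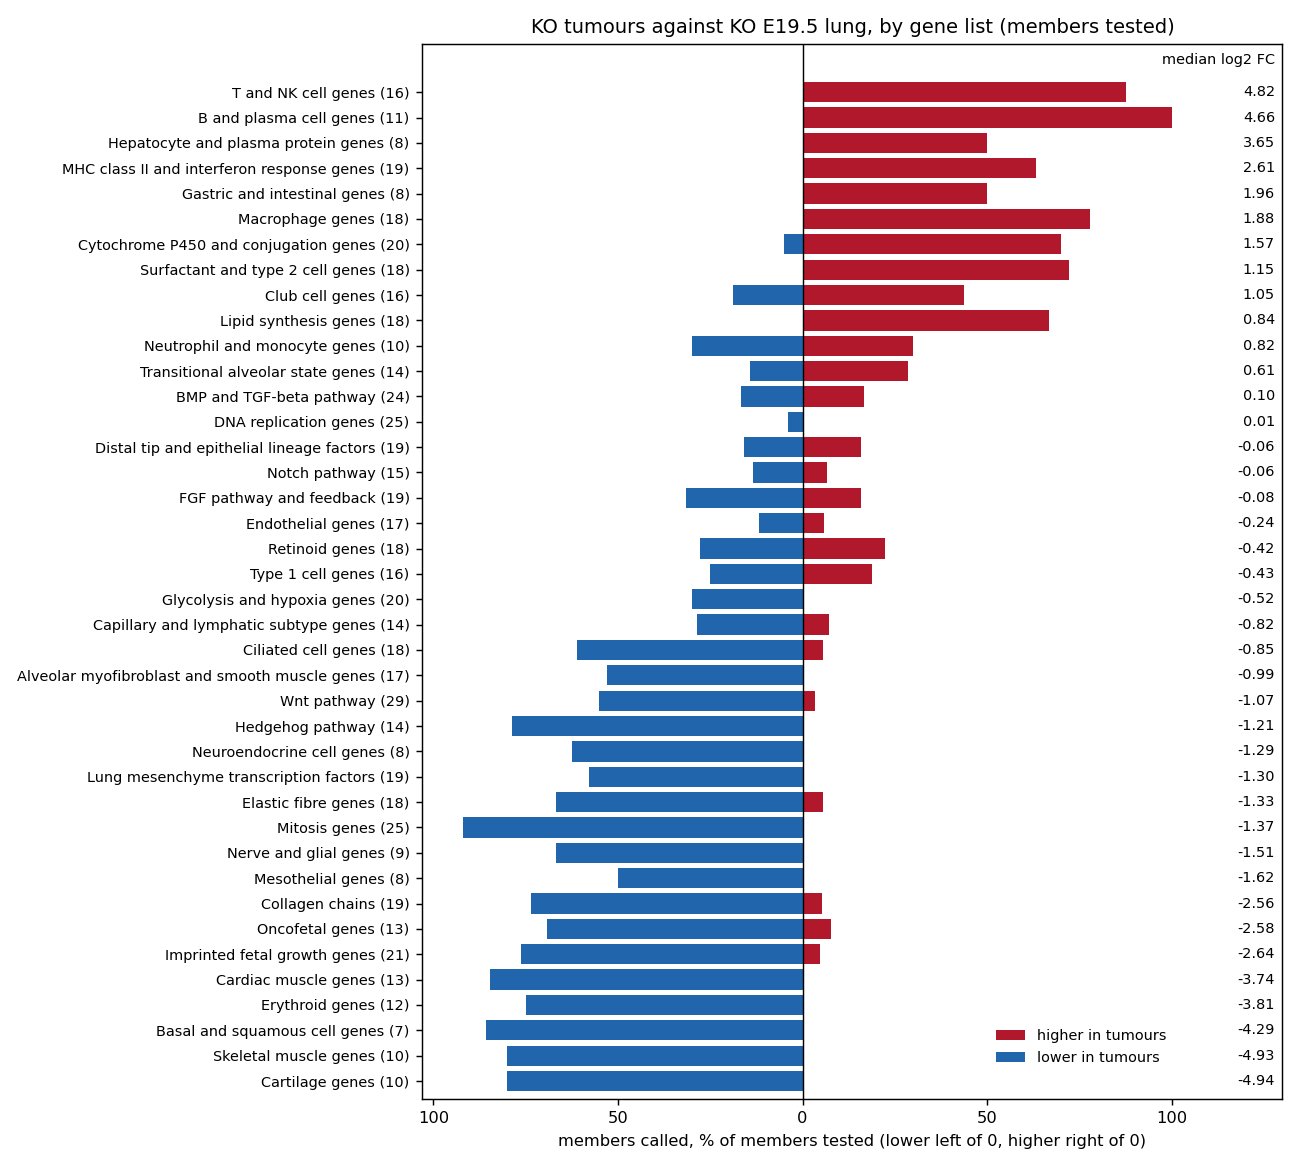
Members of each gene list called higher (red, right of 0) or lower (blue, left of 0) in KO tumours than in KO E19.5 lung, as a percentage of the members tested, with the number tested in brackets and the median log2 fold change of those members at the right. Lists of immune, surfactant, lipid and plasma protein genes lie at the top, and lists of matrix, mesenchyme, imprinted and other-tissue genes at the bottom; over all genes 20.2% were higher and 18.0% lower.

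Imprinted growth genes were mostly lower in tumours than at E19.5. In KO lung at 10 months 19 of 21 were also lower than at E19.5 and 1 higher, where 29.4% of all genes were lower. Of 21 members tested 16 were lower in tumours and Phlda2, a growth restraint of the placenta, was the only one higher (median log2 fold change −2.64, against 0.01 over all genes). Over all genes 18.0% were lower in tumours than at E19.5 and 20.2% higher. H19, a maternally expressed RNA on chromosome 7 (GRCm38 chr7:142575530-142578146), had 0.531, 0.278 and 0.781 CPM in tumours 1, 3 and 6, against 1290, 1179 and 1785 CPM in the E19.5 lungs. The groups were far apart, 2626-fold (log2 fold change −11.36 ± 0.46 SE, adjusted p = 8.98e-05, n = 3 each). Its paternally expressed neighbour Igf2, the insulin-like growth factor of the fetus (chr7:142650768-142666816), had 6.01, 6.28 and 17.2 CPM in tumours, against 536, 507 and 672 CPM at E19.5. This was a fall of 5.85 ± 0.50 on the log2 scale (adjusted p = 5.20e-04). In KO non-tumour lung Igf2 lay between 9.99 and 17.9 CPM and overlapped the tumours. Mest fell in the same way, averaging 2.11 ± 1.13 CPM in tumours and 761 ± 243 CPM at E19.5 (SD, n = 3 each; log2 fold change −8.49 ± 0.53, adjusted p = 2.12e-04). Cdkn1c, an inhibitor of the cell cycle, averaged 16.0 ± 3.03 CPM in tumours and 262 ± 14.7 CPM at E19.5 (SD, n = 3 each; adjusted p = 8.98e-05). Grb10, a restraint on insulin signalling, averaged 36.8 ± 9.38 CPM in tumours and 454 ± 34.7 CPM at E19.5 (adjusted p = 2.12e-04). Zdbf2, another imprinted gene, was 130-fold lower in tumours (adjusted p = 2.86e-04).

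Against non-tumour lung 5 of 19 imprinted genes tested were higher in tumours and 3 lower, where 7.20% and 6.60% of all genes were. These were 4 and 1 without lung 7, and 3 higher with the animal as a block. Dlk1 and Rtl1 were not tested there. Among the imprinted genes, the maternally expressed long RNAs of the Dlk1-Meg3 locus were higher in every tumour than in every non-tumour lung. Meg3 (chr12:109540996-109571729) had 372, 753 and 382 CPM in tumours, against 1273, 1150 and 2280 CPM at E19.5. In the 5 non-tumour lungs it had 2.24, 3.35, 1.73, 13.7 and 12.8 CPM. The tumours therefore stood 3.11-fold below fetal lung (adjusted p = 0.0171; 0.0569 without E19.5 lung 3) and 75.1-fold above non-tumour lung (log2 fold change 6.23 ± 0.74, adjusted p = 0.00226; 0.0486 with the animal as a block, 0.00667 without lung 7). Rian (chr12:109603945-109661716) had 258, 415 and 122 CPM in tumours and 521, 447 and 835 CPM at E19.5. It lay between 3.80 and 6.79 CPM in non-tumour lung, 55.2-fold below tumours (adjusted p = 5.61e-04; 0.0476 with the block, 0.00342 without lung 7), and did not pass the test against E19.5 lung (log2 fold change −1.17 ± 0.45, adjusted p = 0.0811). Mirg (chr12:109734981-109749458), the host RNA of a microRNA cluster, had 6.51, 12.1 and 3.32 CPM in tumours, against 25.7, 19.7 and 64.7 CPM at E19.5 and at most 0.195 CPM in non-tumour lung. It was lower in tumours than at E19.5 (adjusted p = 0.0224; 0.0584 without tumour 1 and 0.0687 without E19.5 lung 3). The paternally expressed Dlk1 (chr12:109452485-109463336), a membrane protein that restrains differentiation, behaved otherwise from tumour to tumour. It had 56.1, 10.9 and 0.0781 CPM in tumours 1, 3 and 6, against 2063, 2157 and 3222 CPM at E19.5 (log2 fold change −6.76 ± 1.66, adjusted p = 0.0184; 0.0525 without tumour 3 and 0.0522 without E19.5 lung 3). Non-tumour lungs had at most 0.0390 CPM of it, so tumours 1 and 3 were above every non-tumour lung by far, while tumour 6 was near them.

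**Figure D3:**
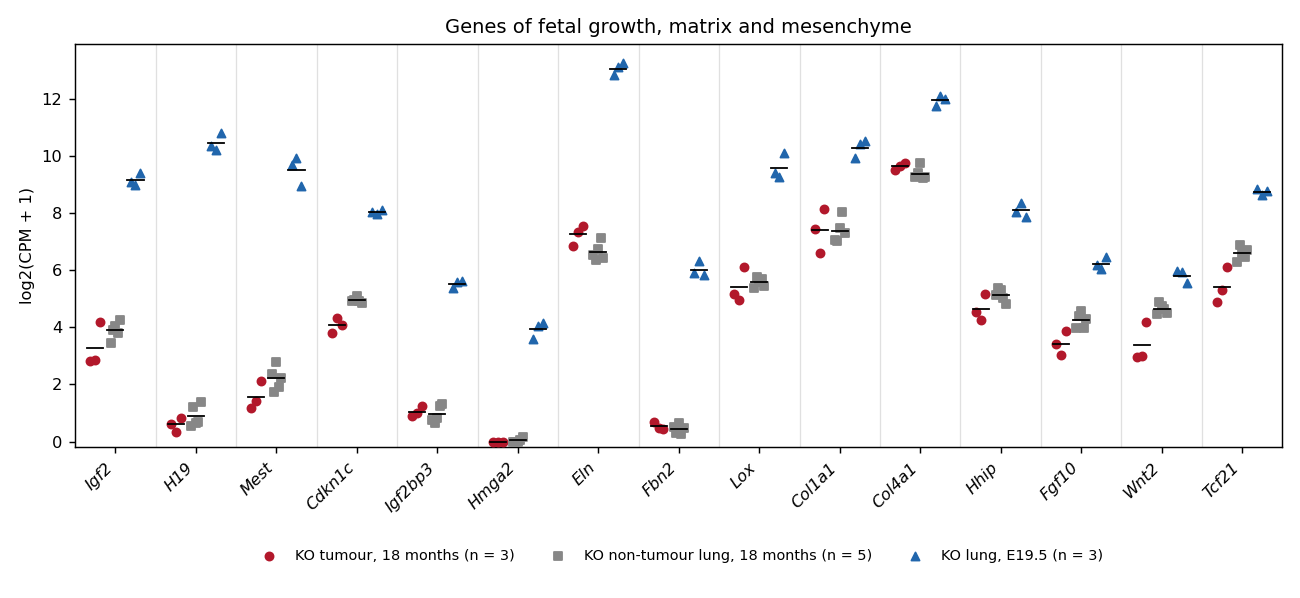
Level of 15 genes of fetal growth, matrix and mesenchyme as log2(CPM + 1) (vertical axis) in each library: KO tumours (red circles), KO non-tumour lungs at 18 months (grey squares) and KO E19.5 lungs (blue triangles); the line is the group mean. In all 15 genes the E19.5 lungs lie above every tumour, for example at 7206 to 9752 CPM of Eln against 115 to 185 CPM in tumours.

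Oncofetal genes are fetal genes that some cancers express again. Of 13 tested 9 were lower in tumours than at E19.5 and the cell cycle driver Ccnd1 alone was higher, where 18.0% of all genes were lower and 20.2% higher. In KO lung at 10 months 9 of 13 were also lower than at E19.5 and 2 higher, where 29.4% of all genes were lower. Against non-tumour lung 1 of 10 tested was higher in tumours (1 without lung 7), and no call was left with the block. Igf2bp3, an RNA-binding protein of fetal tissue, had 0.863, 0.994 and 1.37 CPM in tumours, against 40.8, 46.6 and 47.8 CPM at E19.5 (log2 fold change −5.38 ± 0.20, adjusted p = 8.33e-05). Its relatives Igf2bp1 and Igf2bp2 were 17.5-fold and 11.2-fold lower (adjusted p = 0.00165 and 4.05e-04). Hmga2, a chromatin protein of growing fetal tissue, had no read in any tumour and 11.0, 15.7 and 16.9 CPM at E19.5, at least 418-fold lower against a floor of 3 reads over the tumours. Ccnd1 had 566, 818 and 548 CPM in tumours, 151, 179 and 121 CPM at E19.5 and at most 318 CPM in non-tumour lung. It stood 4.30-fold above fetal lung (adjusted p = 0.00109).

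Matrix genes of the fetal lung were mostly lower in tumours than at E19.5. In KO lung at 10 months 17 of 19 collagen chains were also lower than at E19.5 and 1 higher. Of 18 elastic fibre genes 13 were lower there and 2 higher, where 29.4% of all genes were lower. In tumours 14 of 19 collagen chains tested were lower than at E19.5 and Col8a1 was higher (median log2 fold change −2.56). Of 18 elastic fibre genes 12 were lower and Mfap5 was higher (median −1.33). Over all genes 18.0% were lower in tumours and 20.2% higher. Against non-tumour lung 2 of 19 collagen chains were higher in tumours and 2 lower. These were 2 and 1 without lung 7, and 1 higher with the block. No elastic fibre gene was called against non-tumour lung. Eln, elastin itself, had 115, 162 and 185 CPM in tumours, against 7206, 8789 and 9752 CPM at E19.5, a difference of 55.4-fold (adjusted p = 1.77e-04). Non-tumour lungs had between 81.4 and 139 CPM and overlapped the tumours. Fbn2, the fibrillin of developing tissue, averaged 0.449 ± 0.131 CPM in tumours and 64.6 ± 13.3 CPM at E19.5 (140-fold, adjusted p = 8.33e-05), and Lox, which cross-links elastin and collagen, was 17.9-fold lower (adjusted p = 8.55e-04). Col1a1 had 173, 96.4 and 281 CPM in tumours and 974, 1359 and 1483 CPM at E19.5 (log2 fold change −2.78 ± 0.42, adjusted p = 0.00311). Col4a1, of basement membranes, had 734, 809 and 858 CPM in tumours and 3424, 4360 and 4105 CPM at E19.5 (adjusted p = 7.70e-04). Neither collagen passed the test between tumours and non-tumour lung (adjusted p = 0.883 and 0.322), and their ranges overlapped.

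Col15a1, a collagen of basement membrane zones, went against the other chains. It had 191, 195 and 73.9 CPM in tumours, against 69.1, 85.7 and 81.6 CPM at E19.5, where it did not pass the test (log2 fold change 0.97 ± 0.35, adjusted p = 0.0690). Non-tumour lungs had 9.07 to 14.3 CPM, so the tumours were above all of them (log2 fold change 3.61 ± 0.30, adjusted p = 6.83e-04; 0.0476 with the block, 0.00405 without lung 7).

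Markers of neighbouring tissues, and of basal and squamous cells, were mostly lower in tumours than at E19.5 as well. Cartilage genes were lower in tumours in 8 of 10 tested, skeletal muscle genes in 8 of 10, cardiac muscle genes in 11 of 13, nerve and glial genes in 6 of 9 and basal and squamous cell genes in 6 of 7. Over all genes 18.0% were lower. A gene can enter this test through its level at E19.5 alone, so these shares are partly set by the filter. The lists hold 15, 14, 13, 11 and 12 genes, and members too low in both groups or absent from the data were not tested. In KO lung at 10 months 9 of 10, 10 of 10, 3 of 13, 7 of 9 and 4 of 7 were lower than at E19.5. The mean log2(CPM + 1) of the cartilage list was 0.83 to 0.90 in tumours and 2.25 to 2.63 in E19.5 lungs, that of the cardiac list 0.93 to 2.77 against 4.55 to 5.78, and that of the skeletal muscle list 0.16 to 0.47 against 1.55 to 2.92. Acan, the proteoglycan of cartilage, had no read in tumours and 4.14, 3.45 and 1.52 CPM at E19.5, and Nppa, the atrial hormone, had 144, 6.87 and 85.2 CPM at E19.5 and 1 read over the tumours. The part of such tissue in the matrix and mesenchyme results was not tested.

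Signals and factors of the fetal mesenchyme were lower in tumours than at E19.5 as well. Of 14 Hedgehog pathway genes tested 11 were lower in tumours (median log2 fold change −1.21), where 18.0% of all genes were. In KO lung at 10 months 11 of 15 were lower than at E19.5 and 1 higher, where 29.4% of all genes were lower. Against non-tumour lung 3 of 15 were lower in tumours (1 without lung 7), where 6.60% of all genes were. With the block no call was left. Shh, the ligand made by the epithelium, had 19.5, 19.4 and 16.7 CPM in tumours and 55.7, 50.8 and 34.0 CPM at E19.5 (adjusted p = 0.00295), while non-tumour lungs had 9.72 to 15.1 CPM. Hhip, a target and antagonist of the pathway in mesenchyme, had 22.3, 18.0 and 35.1 CPM in tumours, against 261, 327 and 234 CPM at E19.5 (10.8-fold lower, adjusted p = 5.00e-04). The receptor component Smo was 2.14-fold lower (adjusted p = 8.20e-04) and the transcription factors Gli2 and Gli3 were 4.57-fold and 4.18-fold lower (adjusted p = 0.00883 and 0.00403). Fgf10, the mesenchymal ligand of lung budding, had 9.70, 7.11 and 13.5 CPM in tumours and 72.3, 64.3 and 87.1 CPM at E19.5 (adjusted p = 6.07e-04). Its epithelial receptor Fgfr2 did not pass the test, with 454, 477 and 276 CPM in tumours and 300, 317 and 335 CPM at E19.5 (log2 fold change 0.35 ± 0.23, adjusted p = 0.263). Fgfr2 lay between 160 and 217 CPM in non-tumour lung, below every tumour (log2 fold change 1.09 ± 0.18, adjusted p = 0.00684; 0.0615 with the block, 0.0196 without lung 7). Fgfr4, another FGF receptor, was 5.15-fold lower in tumours than at E19.5 (adjusted p = 0.00524).

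Of 29 Wnt pathway genes tested 16 were lower in tumours than at E19.5 and Wnt4 was higher (median log2 fold change −1.07). In KO lung at 10 months 19 of 29 were lower than at E19.5 and 6 higher. Against non-tumour lung 5 of 27 were lower in tumours and 3 higher. These were 4 and 1 without lung 7, and 1 and 1 with the block. Wnt2, the mesenchymal ligand that specifies the lung, averaged 10.3 ± 5.96 CPM in tumours and 55.7 ± 8.92 CPM at E19.5 (SD, n = 3 each; adjusted p = 0.00371), and Axin2, a common target of the pathway, was 3.84-fold lower (adjusted p = 0.00249). Wnt7b, the ligand of the distal epithelium, had 18.9, 18.6 and 7.26 CPM in tumours and 32.6, 28.8 and 30.0 CPM at E19.5, and narrowly missed the threshold (adjusted p = 0.0543). Among 19 transcription factors of lung mesenchyme tested 11 were lower (median −1.30). In KO lung at 10 months 13 of 19 were lower than at E19.5 and 1 higher. Against non-tumour lung 2 of 18 were lower in tumours, and no call was left without lung 7 or with the block. Tcf21, of lipid-bearing fibroblasts, had 28.4, 38.4 and 67.5 CPM in tumours and 452, 393 and 440 CPM at E19.5 (9.52-fold, adjusted p = 8.64e-04). Tbx4 and Tbx5, which set lung identity in the mesenchyme, were 3.22-fold and 3.47-fold lower (adjusted p = 0.00529 and 0.00326). Foxf1, also of endothelium, had 52.1, 83.9 and 230 CPM in tumours and 174, 156 and 113 CPM at E19.5, so the groups overlapped. In BMP signalling 4 of 24 genes were higher and 4 lower, where 20.2% of all genes were higher and 18.0% lower. Bmp4, a ligand of the distal epithelium and its mesenchyme, had 138, 215 and 129 CPM in tumours and 56.4, 51.5 and 53.3 CPM at E19.5 (3.00-fold higher, adjusted p = 0.00172).

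Of 19 epithelial lineage factors tested 3 were higher and 3 lower in tumours than at E19.5, where 20.2% of all genes were higher and 18.0% lower (median log2 fold change −0.06), while 15 of the 19 were lower at 10 months than at E19.5 in KO lung, where 29.4% of all genes were (60.5% called in either direction). Nkx2-1, which keeps lung epithelial identity, had 297, 431 and 292 CPM in tumours and 341, 327 and 403 CPM at E19.5 (log2 fold change −0.06 ± 0.19, adjusted p = 0.819). All 5 non-tumour lungs were lower, at 176 to 222 CPM (tumours and non-tumour lungs did not overlap for 20.9% of all genes; log2 fold change 0.79 ± 0.16, adjusted p = 0.0122; 0.139 with the block, 0.0291 without lung 7). Foxp2, a factor of the distal epithelium, had 14.8, 36.1 and 13.7 CPM in tumours, 5.68 to 9.38 CPM in non-tumour lung and 29.5, 42.6 and 31.9 CPM at E19.5. It was higher in tumours than in non-tumour lung (log2 fold change 1.56 ± 0.32, adjusted p = 0.0143; 0.0719 with the block, 0.0296 without lung 7) and missed the threshold against E19.5 (adjusted p = 0.194). Elf5, a further distal factor, averaged 60.5 ± 22.2 CPM in tumours, 22.9 ± 4.23 CPM in non-tumour lung and 77.6 ± 2.25 CPM at E19.5; it was named after its values were seen. In all, 9 of 17 factors tested were higher in tumours than in non-tumour lung (7.20% of all genes), 8 without lung 7 and 1 with the block.

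Markers of growing fetal tips varied between tumours. Sox9, the tip factor, had 10.7 CPM in tumour 1 but 0.397 and 0.156 CPM in tumours 3 and 6, against 18.1, 19.1 and 26.5 CPM at E19.5 (adjusted p = 0.158). In tumour 1 it was thus above every non-tumour lung (at most 0.663 CPM), and in the other tumours within their range. Etv4, a target of FGF signalling in tips, stood above both references, with 16.4, 27.8 and 7.50 CPM in tumours, 0.303 to 1.07 CPM in non-tumour lung and 1.77, 3.07 and 0.880 CPM at E19.5 (9.02-fold over E19.5, adjusted p = 0.00698; against non-tumour lung adjusted p = 0.00122, 0.0520 with the block and 0.00652 without lung 7).

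Among genes at least 4-fold lower at 10 months than at E19.5, 4 more that were called higher in tumours than in non-tumour lung are given here. Tmem213, a small membrane protein, had 29.4, 52.2 and 9.56 CPM in tumours, 0.123 to 0.675 CPM in non-tumour lung and 83.9, 82.7 and 108 CPM at E19.5. Atp6v0a4, a subunit of the proton pump of acid-secreting cells, had 41.4, 85.9 and 23.7 CPM in tumours, 3.07 to 9.26 CPM in non-tumour lung and 90.0, 92.8 and 166 CPM at E19.5. For both genes every tumour lay below every E19.5 lung, yet the test was not passed (adjusted p = 0.0526 for Tmem213 and 0.0857 for Atp6v0a4). Against non-tumour lung both were higher, Tmem213 by a log2 fold change of 6.47 ± 0.58 (adjusted p = 9.63e-04; 0.0476 with the block, 0.00466 without lung 7) and Atp6v0a4 by 3.27 ± 0.45 (adjusted p = 0.00323; 0.0476 with the block, 0.0107 without lung 7). Veph1 had 6.97, 9.50 and 3.94 CPM in tumours, 0.450 to 1.09 CPM in non-tumour lung and 18.6, 18.3 and 8.12 CPM at E19.5 (against non-tumour lung adjusted p = 0.00212; 0.0476 with the block, 0.00775 without lung 7). Prss35, a secreted protease-like protein, reached 50.9 CPM in tumour 1 but 2.35 and 1.09 CPM in tumours 3 and 6, against 19.8, 22.4 and 20.1 CPM at E19.5, and its call against non-tumour lung (adjusted p = 0.0343) had an adjusted p of 0.469 without tumour 1, 0.0717 without non-tumour lung 7 and 0.452 with the block.

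**Figure D4:**
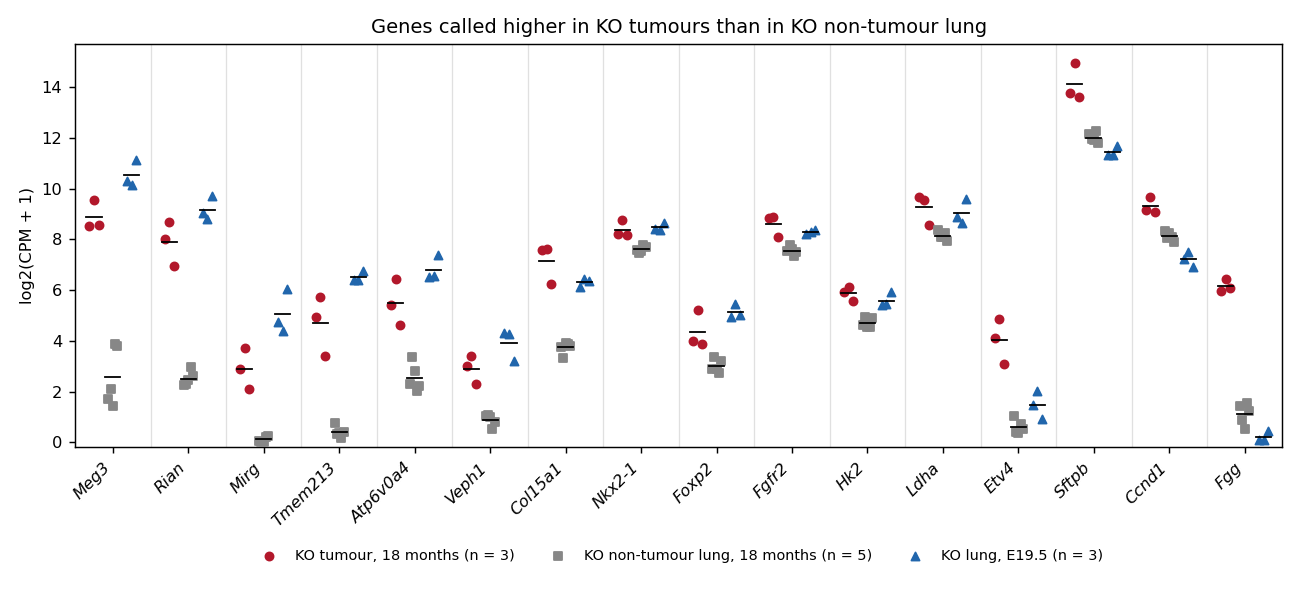
Level of 16 genes that passed the test as higher in KO tumours than in KO non-tumour lung, as log2(CPM + 1) (vertical axis) in each library: KO tumours (red circles), KO non-tumour lungs at 18 months (grey squares) and KO E19.5 lungs (blue triangles); the line is the group mean. All tumours lie above the non-tumour lungs; for Nkx2-1 they lie at 297 to 431 CPM against 327 to 403 CPM at E19.5, for Meg3 every tumour lies below the E19.5 lungs, and from Etv4 to Fgg every tumour lies above both other groups.

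Of 20 glycolysis and hypoxia genes tested 6 were lower in tumours than at E19.5, where 18.0% of all genes were, and the other 14 did not pass. In KO lung at 10 months 14 of 20 were lower than at E19.5 and 2 higher, where 29.4% of all genes were lower. Against non-tumour lung 5 of 20 were higher in tumours (3 without lung 7 and 1 with the block), where 7.20% of all genes were. Hk2, which commits glucose to glycolysis, had 59.6, 68.9 and 46.6 CPM in tumours, 22.5 to 29.4 CPM in non-tumour lung and 41.2, 42.4 and 59.1 CPM at E19.5. It was higher than in non-tumour lung (log2 fold change 1.20 ± 0.15, adjusted p = 0.00261; 0.0476 with the block, 0.00698 without lung 7) and did not pass against E19.5 (log2 fold change 0.30 ± 0.20, adjusted p = 0.269). Ldha, which makes lactate, had 815, 762 and 376 CPM in tumours and 472, 403 and 777 CPM at E19.5 (adjusted p = 0.628), above the 246 to 329 CPM of non-tumour lung (adjusted p = 0.0117; 0.126 with the block, 0.0317 without lung 7). Among the members that fell were genes known to respond to low oxygen. Adm, a vasodilator peptide, had 2.82, 2.35 and 3.16 CPM in tumours and 15.1, 11.9 and 31.5 CPM at E19.5 (6.96-fold, adjusted p = 0.00260), and Egln3, an oxygen sensor, had 19.2, 2.15 and 4.10 CPM in tumours and 81.7, 60.4 and 193 CPM at E19.5 (adjusted p = 0.0176; 0.0558 without E19.5 lung 3).

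Genes of mitosis and of DNA replication were followed as separate lists. Mitosis genes were lower in tumours than in fetal lung in 23 of 25 tested (median log2 fold change −1.37), where 18.0% of all genes were. DNA replication genes were near the fetal level, with a median of 0.01 (−0.11 on the FPKM scale) and Rrm2 as the only one called of 25. Mki67, the usual marker of dividing cells, had 47.1, 22.1 and 35.7 CPM in tumours and 74.6, 102 and 107 CPM at E19.5 (log2 fold change −1.42 ± 0.30, adjusted p = 0.0100). Non-tumour lungs had 13.8 to 27.8 CPM and overlapped the tumours. Ube2c, which marks mitotic proteins for destruction, had 7.04, 3.82 and 3.12 CPM in tumours and 20.6, 21.4 and 16.4 CPM at E19.5 (4.11-fold, adjusted p = 0.00387). Top2a, which untangles chromosomes, was 2.58-fold lower (adjusted p = 0.00569). The 2 mitosis genes that did not pass were Ndc80 of the kinetochore and Kif23, a motor of the dividing cell's midzone. Kif23 averaged 15.9 ± 4.35 CPM in tumours, 5.46 ± 0.888 CPM in non-tumour lung and 14.0 ± 2.33 CPM at E19.5 (SD). Mcm2, of the helicase that opens replication forks, had 27.4, 23.2 and 30.8 CPM in tumours and 20.2, 30.4 and 18.2 CPM at E19.5 (adjusted p = 0.412). Rrm2, which makes nucleotides for DNA, was 1.92-fold lower (adjusted p = 0.0290; 0.0587 without tumour 3, 0.0844 without E19.5 lung 1 and 0.106 without E19.5 lung 2). At 10 months 25 of 25 mitosis genes and 12 of 25 replication genes were lower than at E19.5 in KO lung. Over all genes 29.4% were lower there (60.5% called in either direction). Of both lists, Kif23 was the only gene called between tumours and non-tumour lung (log2 fold change 1.54 ± 0.21, adjusted p = 0.00317), and with the animal as a block it was not called. Without lung 7, 1 mitosis gene was likewise called.

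**Figure D5:**
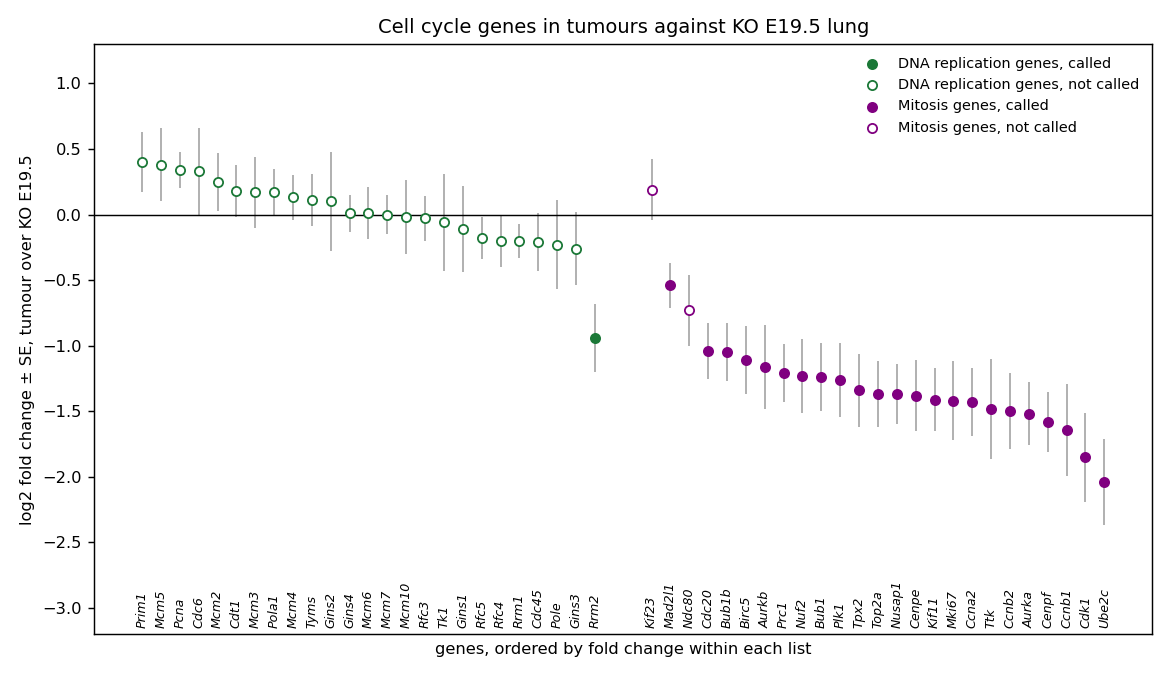
Log2 fold change ± SE of tumours over KO E19.5 lung (vertical axis, n = 3 each) for each of 25 DNA replication genes (green) and 25 mitosis genes (purple), ordered by fold change within a list; filled points passed the test. Replication genes scatter around 0 with Rrm2 as the lowest at −0.94, and all mitosis genes but Kif23 lie below 0.

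Promoters of both lists are shown to set the letters of their start regions beside these values. Promoters (the RefSeq GRCm38.p6 sequence from 250 bases before to 50 bases after the start site) were searched on both strands for the CHR element TTTGAA, known from genes of mitosis, and for the E2F motif TTNGCGC, known from genes of replication; the motifs are different strings, but matches of TTNGCGC and CCAAT can share bases. The promoter table matched 22 mitosis genes (23 promoters) and 20 replication genes (21 promoters). TTTGAA occurred in 69.6% of the mitosis promoters, 14.3% of the replication promoters and 17.9% of all 32851 promoters searched. TTNGCGC occurred in 13% of the mitosis promoters, 38.1% of the replication promoters and 6.36% of all promoters. CCAAT, a common promoter box, occurred in 78.3% of the mitosis promoters, 71.4% of the replication promoters and 37.4% of all promoters. A match is a description of the letters and not a binding site. Kif23, which did not pass the test against E19.5 lung, holds TTTGAA as well, and Mcm2 and Rrm2 hold no TTNGCGC in this window. The promoters of Ube2c (chr2:164769679-164769978, plus strand), Cdk1 (chr10:69352863-69353162, minus strand) and Kif23 (chr9:61946750-61947049, minus strand) follow with TTTGAA or its reverse complement in capitals, and those of Mcm5 (chr8:75109259-75109558, plus strand) and Mcm6 (chr1:128359656-128359955, minus strand) with TTNGCGC or its reverse complement in capitals, each 5′ to 3′ along its gene. Cdk1, the kinase that starts mitosis, averaged 7.82 ± 4.00 CPM in tumours and 28.6 ± 1.12 CPM at E19.5 (adjusted p = 0.00644), and Mcm5, of the same helicase as Mcm2, had 25.5, 18.6 and 20.6 CPM in tumours and 14.8, 23.7 and 11.8 CPM at E19.5 (adjusted p = 0.323). Mcm6 averaged 41.2 ± 7.13 CPM in tumours and 41.1 ± 8.05 CPM at E19.5 (adjusted p = 0.963).
Ube2c: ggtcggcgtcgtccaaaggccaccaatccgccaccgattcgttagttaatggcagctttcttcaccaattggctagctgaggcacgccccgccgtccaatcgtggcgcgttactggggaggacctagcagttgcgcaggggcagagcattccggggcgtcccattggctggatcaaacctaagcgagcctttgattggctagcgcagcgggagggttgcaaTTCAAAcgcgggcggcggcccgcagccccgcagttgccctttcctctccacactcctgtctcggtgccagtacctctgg
Cdk1: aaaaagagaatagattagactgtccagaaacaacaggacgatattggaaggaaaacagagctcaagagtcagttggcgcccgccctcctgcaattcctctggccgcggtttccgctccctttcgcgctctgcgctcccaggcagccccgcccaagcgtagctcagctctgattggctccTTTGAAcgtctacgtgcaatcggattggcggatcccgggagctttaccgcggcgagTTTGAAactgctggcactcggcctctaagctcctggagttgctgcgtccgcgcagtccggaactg
Kif23: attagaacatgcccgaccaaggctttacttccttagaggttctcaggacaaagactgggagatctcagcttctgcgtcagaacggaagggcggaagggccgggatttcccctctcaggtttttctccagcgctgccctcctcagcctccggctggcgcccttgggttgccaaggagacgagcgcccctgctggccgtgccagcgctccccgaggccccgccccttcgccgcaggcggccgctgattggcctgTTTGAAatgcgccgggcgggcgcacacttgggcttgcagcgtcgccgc
Mcm5: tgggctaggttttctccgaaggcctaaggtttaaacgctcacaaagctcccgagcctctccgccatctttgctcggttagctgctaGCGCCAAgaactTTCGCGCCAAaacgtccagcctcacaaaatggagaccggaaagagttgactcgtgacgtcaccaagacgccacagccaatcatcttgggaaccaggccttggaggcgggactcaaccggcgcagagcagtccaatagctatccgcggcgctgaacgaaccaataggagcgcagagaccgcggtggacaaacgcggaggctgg
Mcm6: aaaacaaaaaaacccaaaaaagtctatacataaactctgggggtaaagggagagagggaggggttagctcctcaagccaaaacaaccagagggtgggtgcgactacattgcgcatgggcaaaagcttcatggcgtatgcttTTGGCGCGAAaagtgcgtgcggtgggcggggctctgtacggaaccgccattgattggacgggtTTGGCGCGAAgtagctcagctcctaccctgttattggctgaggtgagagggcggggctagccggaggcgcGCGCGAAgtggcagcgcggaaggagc

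Surfactant and type 2 cell genes exceeded the fetal level. Of 18 tested 13 were higher in tumours than at E19.5, where 20.2% of all genes were, and the other 5 did not pass (median log2 fold change 1.15). In KO lung at 10 months 4 of 18 were higher than at E19.5 and 7 lower. Against non-tumour lung 15 of 18 were higher (7.20% of all genes), 14 without lung 7 and 2 with the block. Sftpb, the surfactant protein needed for breathing, had 14066, 31968 and 12521 CPM in tumours, 3535 to 4916 CPM in non-tumour lung and 2586, 2600 and 3296 CPM at E19.5. It stood 6.91-fold above fetal lung (adjusted p = 0.00409). Sftpa1 and Sftpd, the surfactant proteins of innate defence, were 6.78-fold and 6.51-fold higher (adjusted p = 0.00241 and 0.00403). Sftpc, made by type 2 cells alone, had 38412, 43211 and 19107 CPM in tumours and 10729, 10744 and 9857 CPM at E19.5 (3.24-fold, adjusted p = 0.0179). Its call was lost without any E19.5 lung, with adjusted p of 0.0752 without lung 1, 0.0820 without lung 2 and 0.0761 without lung 3. Chil1, a chitinase-like protein, and Il33, an alarm cytokine of type 2 cells, were 5.72-fold and 5.30-fold higher (adjusted p = 0.00300 and 0.00478).

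Abca3, the lipid pump of surfactant granules, Ctsh, a protease that processes surfactant protein, and Lgi3 were among the 5 that did not pass, and were named after their values were seen. They averaged 1086 ± 106, 1386 ± 764 and 596 ± 206 CPM in tumours and 899 ± 75.3, 1101 ± 105 and 445 ± 34.3 CPM at E19.5 (SD, n = 3 each), with adjusted p of 0.257, 0.561 and 0.241. Non-tumour lung averaged 545 ± 58.6, 287 ± 60.4 and 231 ± 11.5 CPM of them. Of 16 type 1 cell genes 3 were higher in tumours than at E19.5 and 4 lower, where 20.2% of all genes were higher and 18.0% lower. Ager, a receptor of type 1 cells, had 1171, 1756 and 1348 CPM in tumours and 1657, 1645 and 1444 CPM at E19.5 (adjusted p = 0.636), and the water channel Aqp5 had 414, 869 and 425 CPM in tumours and 136, 121 and 127 CPM at E19.5 (adjusted p = 0.00254).

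Lipid synthesis genes were mostly higher in tumours than at E19.5. Of 18 genes tested 12 were higher (median log2 fold change 0.84), where 20.2% of all genes were, and the other 6 did not pass. Against non-tumour lung 10 of 18 were higher (8 without lung 7), where 7.20% of all genes were. With the block no call was left. In KO lung at 10 months 6 of 18 were higher than at E19.5 and 2 lower. Scd1, which puts the double bond into fatty acids, had 9584, 5376 and 8285 CPM in tumours and 927, 712 and 675 CPM at E19.5 (10.2-fold, adjusted p = 8.74e-04). Elovl1, which lengthens very long fatty acids, had 1064, 894 and 1013 CPM in tumours and 112, 100 and 92.3 CPM at E19.5 (9.83-fold, adjusted p = 1.39e-04). The NADPH source Me1 was 4.34-fold higher (adjusted p = 0.00573).

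Some genes of liver and gut were read in tumours at levels above fetal lung. Of 14 hepatocyte and plasma protein genes Ttr, Apoa2, Apoc3, Serpina1a, Fgb and Ambp were too low to be tested. Of the others 4 were higher than at E19.5, where 20.2% of all genes were. Against non-tumour lung 8 were higher (7 without lung 7 and 3 with the block), where 7.20% of all genes were. Of 16 gastric and intestinal genes 4 were higher than at E19.5 and 8 were too low to be tested. In both lists a gene can enter a test through its level in tumours alone. The counts called higher are thus partly set by the filter, and the shares over all genes are not a like comparison. Fgg and Fga, chains of fibrinogen, had 61.0, 86.9 and 67.8 CPM and 28.9, 61.7 and 34.2 CPM in tumours, against at most 1.96 and 0.782 CPM in non-tumour lung. At E19.5 Fgg averaged 0.168 ± 0.167 CPM (SD, n = 3), and no E19.5 lung exceeded 0.240 CPM of Fga. Their log2 fold changes over E19.5 were 8.77 ± 0.44 and 8.48 ± 0.64 (adjusted p = 1.11e-04 and 3.88e-04). Fgb, the remaining chain, had no read in tumours. Hnf4a, a transcription factor of liver and gut, had 4.38, 29.4 and 2.73 CPM in tumours and at most 0.120 CPM at E19.5 (adjusted p = 0.00527), with at most 0.476 CPM in non-tumour lung. Gkn2, a stomach mucosa protein, had 2.86, 10.3 and 1.44 CPM in tumours and 2 reads over the E19.5 lungs, 177-fold apart by pooled reads (exact 95% counting interval 48.7 to 1467). Tumour 3 was the highest for Hnf4a, Fga, Fgg and Gkn2. Afp, an albumin-like protein of fetal liver, had 4.98, 13.1 and 2.89 CPM in tumours and 0.0334, 0.418 and 0.720 CPM at E19.5 (adjusted p = 0.0114).

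Conducting airway genes parted by cell type. Of 16 club cell genes 7 were higher in tumours than at E19.5 and 3 lower, and 10 were lower than in non-tumour lung, where 6.60% of all genes were (9 without lung 7 and 1 with the block). Scgb1a1, the main club cell secretion, had 8623, 13883 and 10031 CPM in tumours, 23085 to 46292 CPM in non-tumour lung and 1314, 1019 and 932 CPM at E19.5, between the other groups (10.0-fold over E19.5, adjusted p = 7.65e-04). Scgb3a2, which appears early in the fetal airway, had 90.0, 152 and 204 CPM in tumours, 473 to 918 CPM in non-tumour lung and 1255, 867 and 815 CPM at E19.5, so the tumours were below both (6.55-fold under E19.5, adjusted p = 0.00174; against non-tumour lung 0.00551, 0.0476 with the block and 0.0116 without lung 7). Of 18 ciliated cell genes 11 were lower in tumours than at E19.5 and Cdhr3 was higher. Over all genes 20.2% were higher in tumours than at E19.5 and 18.0% lower. Against non-tumour lung 14 of 18 ciliated cell genes were lower (14 without lung 7 and 6 with the block). In KO lung at 10 months 7 of 18 were higher than at E19.5 and 3 lower. Foxj1, the switch for motile cilia, had 64.3, 57.4 and 38.9 CPM in tumours and 98.0, 96.7 and 142 CPM at E19.5 (adjusted p = 0.0136). Of 8 neuroendocrine genes tested 5 were lower than at E19.5, and 3 of 8 were lower than in non-tumour lung (3 without lung 7). With the block no call was left. Mesothelial genes, of the lung's outer lining, were lower than at E19.5 in 4 of 8 tested, among them Msln with 15.8, 7.35 and 18.9 CPM in tumours and 362, 396 and 402 CPM at E19.5 (27.3-fold, adjusted p = 4.14e-04). Against non-tumour lung 4 of 8 mesothelial genes were also lower (3 without lung 7), and no call was left with the block. In KO lung at 10 months 3 of 8 were higher than at E19.5 and 1 lower.

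Erythroid genes were mostly lower in tumours than at E19.5, while few endothelial genes were called. Embryonic globin Hbb-y had no read in tumours and 2.47, 3.64 and 13.0 CPM at E19.5, at least 177-fold apart, and 9 of 12 erythroid genes tested were lower in tumours. The adult globin Hbb-bs had 44.7, 62.4 and 614 CPM in tumours and 454, 380 and 310 CPM at E19.5, so the groups overlapped. Endothelial genes were called higher in 1 of 17 and lower in 2 (median −0.24), where 20.2% of all genes were higher and 18.0% lower. The mean log2(CPM + 1) of the endothelial list was 6.53 and 6.65 in tumours 1 and 3, below the 7.26 to 7.55 of the E19.5 lungs, and 7.95 in tumour 6, above them. Pecam1, a junction protein of endothelium, had 359, 340 and 779 CPM in tumours and 579, 631 and 549 CPM at E19.5 (adjusted p = 0.608). Tumour 6 was the highest of the tumours for Pecam1, for Hbb-bs and for the mesenchymal factors Foxf1, Tcf21 and Tbx4.

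Most immune lists had more genes higher in tumours than at E19.5. T and NK cell genes were higher in 14 of 16 tested, B and plasma cell genes in 11 of 11, macrophage genes in 14 of 18, and genes of MHC class II and the interferon response in 12 of 19. Neutrophil and monocyte genes were mixed, with 3 of 10 higher and 3 lower, where 20.2% of all genes were higher and 18.0% lower. Cd74, the chaperone of MHC class II, had 4591, 3779 and 3328 CPM in tumours and 56.9, 54.1 and 34.6 CPM at E19.5 (81.1-fold, adjusted p = 1.39e-04). Chil3, of lung macrophages, had 11913, 1826 and 1742 CPM in tumours and 6.75, 6.72 and 6.72 CPM at E19.5 (781-fold, adjusted p = 0.00130), and Jchain, of plasma cells, had 1405, 30.0 and 117 CPM in tumours and 0.111 ± 0.0101 CPM at E19.5 (mean ± SD; adjusted p = 0.00472). Non-tumour lung held 499 to 1484 CPM of Chil3 and 51.7 to 752 CPM of Jchain. H2-Q8, a class I MHC gene with near-identical neighbours among which reads can be split, had no read at E19.5 and 66.5, 41.6 and 134 CPM in tumours. At 10 months 15 of 16 T and NK cell genes and 11 of 11 B and plasma cell genes were also higher than at E19.5, where 31.1% of all genes were. In tumours against non-tumour lung the macrophage list had 3 of 18 genes higher, where 7.20% of all genes were. Without lung 7 it was 1, and no call was left with the animal as a block.

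The remaining lists were as follows. Cytochrome P450 and conjugation genes, which clear foreign compounds, were higher in tumours than at E19.5 in 14 of 20 tested, with Cyp2e1 lower. Of 21 tested 13 were lower than in non-tumour lung, where 6.60% of all genes were. Without lung 7 it was 10, and no call was left with the animal as a block. At 10 months 19 of 21 of them were higher than at E19.5, where 31.1% of all genes were. Genes of alveolar myofibroblasts and smooth muscle were lower in 9 of 17 tested against E19.5 (median log2 fold change −0.99). Over all genes 20.2% were higher in tumours than at E19.5 and 18.0% lower. The FGF pathway had 3 of 19 genes higher and 6 lower, retinoid genes 4 of 18 higher and 5 lower, and the Notch pathway 1 of 15 higher and 2 lower. Genes of a transitional alveolar state were higher in 4 of 14 and lower in 2, and capillary and lymphatic subtype genes were higher in 1 of 14 and lower in 4.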

How the data were processed

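Total RNA of 23 mouse lung libraries was sequenced. Per the submitters' processing notes, the authors used Trimmomatic 0.36, STAR 2.5.2b and RSEM 1.3.0 with the mm10 build, and deposited an expected count and an FPKM value per gene and library. Strand use in counting is not given in the sources used here, so antisense and overlapping genes are uncertain.

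Expected counts were rounded, filtered with filterByExpr, scaled by TMM and tested with edgeR 4.0.16 (quasi-likelihood, Benjamini-Hochberg adjustment, threshold 0.05) in R 4.3.3, within the groups compared. CPM are TMM-scaled; ± after a log2 fold change is its SE, after a mean the SD. Libraries held 23661172 to 46566639 counts; intervals and floors (3 counts) cover counting error only. Alternatives were DESeq2 1.42.0, limma 3.58.1 on the deposited FPKM, other scalings and filters, a replicate block, other reference groups and leaving out libraries. The code was tested on simulated data. Replicate pairs differed by a chi-square per degree of freedom of at least 12.9, so none was taken as a duplicate.

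Tumours and non-tumour lungs 1, 3 and 6 carry shared animal codes and are paired by these. Their deviations correlated at 0.376, 0.0977 and 0.0993. Tumours 3 and 6 correlated better with a non-tumour lung of another number. Members and gene lists were chosen with earlier results of these data known. Genes named are Rarres1, key genes of each list, up to 6 further members with the smallest adjusted p, the 15 largest rises and falls past the threshold with groups that do not overlap and at least 5 CPM, and set numbers of fetal-high and adult-high genes (12, 12 and 8). Kif23, Ndc80, Cdk1, Mcm6, Elf5, Abca3, Ctsh, Lgi3 and lone exceptions of a list were chosen after their values were seen.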

Additional observations from a re-analysis of the deposited data

Results flagged for a closer look

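Summed levels of the 41 gene lists, as mean log2(CPM + 1), were searched for a library far from the others of its group; chance alone marks about 1 in 20 groups. Non-tumour lung 1 stood apart for the Wnt list, at 3.60 against 3.67 to 3.69 in the other non-tumour lungs. It also stood apart for the neutrophil and monocyte list, at 3.32 against 2.91 to 2.99. Non-tumour lung 7 stood apart for the sex-linked genes, at 1.94 against 4.00 to 4.18.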

How the results depend on the processing

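Against E19.5 lung, the 5938 calls were 6966 in DESeq2, 8834 in a fit over all libraries and 6038 against WT E19.5 lungs. A block on replicate number gave 5179, but here equal numbers stand for no shared animal. Leaving out 1 library each gave 3829 to 7464. Against non-tumour lung, the 2134 calls were 3400 in DESeq2, 146 with the animal as a replicate block and 5158 in a fit over all libraries; leaving out 1 library each gave 1074 (without tumour 3) to 4066 (without tumour 6), with 1288 without tumour 1, 1330 without non-tumour lung 1, 1150 without 2, 1255 without 3 and 1452 without 7. The 9454 calls between 10-month and E19.5 lung ranged from 8380 to 9540 when 1 library each was left out and from 8728 to 9835 under the other alternatives. The causes were not tested.

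Classes defined in KO lung held 688 fetal-high genes, of which 65 were higher in tumours than in non-tumour lung and 575 lower than at E19.5 without such a rise, and 855 adult-high genes, 121 of them lower in tumours. At 2-fold these were 1658, 182, 1177, 2025 and 318. DESeq2 gave 100 and 216 for the 65 and 121, and the replicate block 11 and 8. Leaving out 1 library each gave 683 to 813, 47 to 92, 530 to 629, 855 to 904 and 48 to 263.

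Of 409 named genes tested 310 were called against E19.5 lung, 239 of them without each library in turn, and no alternative run reversed a call. On the FPKM scale 794 genes were higher and 1408 lower in tumours than in non-tumour lung, a median shift of −0.09. Depth limits genes with few reads, as for Hmga2 and Acan in tumours.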
